A study of Mus musculus with 4 samples.

Results

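Skeletal muscle fibres are slow or fast, and a small set of transcription factors and coactivators sets which contractile and metabolic genes a fibre uses. The set described here holds 9 such regulators, chosen by symbol from the 55401 genes of the count files: Ppargc1a, Esrra, Esrrb, Esrrg, Vgll2, Sox6, Prox1, Nfatc1 and Tead1. All 9 were found, and 8 passed the filter on low counts, while Prox1 did not. The libraries came from semimembranosus, a thigh muscle, of 8-week-old C57BL/6 mice whose left external iliac vein had been tied over a 30-gauge needle, a model of iliac vein stenosis (IVS). In the IVS group (2 libraries) the mice received saline by gavage daily, and in the IVS_diosmin group (2 libraries) they received diosmin, a plant flavonoid, at 40 mg per kg per day. All mice of both groups carried the stenosis, so no library gives an unoperated level. The labels do not say that the libraries of a group came from separate animals, so the tests rest on the spread between libraries, and that spread may be technical.

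PGC-1α, the product of Ppargc1a, is a coactivator that joins the estrogen-related receptors (ERRα, ERRβ and ERRγ, from Esrra, Esrrb and Esrrg) on genes of mitochondria and fat oxidation, and it is known for raising the oxidative character of muscle. Calcineurin signalling through NFATc1 and the TEAD1 factor with its cofactor VGLL2 are tied to slow fibre genes, and PROX1 is needed for the slow programme in adult muscle. SOX6 represses slow fibre genes in fast fibres, and microRNAs encoded within slow myosin genes are known to act on its transcript.

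Because Sox6 is tied to these microRNAs, the mature sequences are shown with the seed (bases 2 to 8) in capitals, from RefSeq on GRCm38.p6. The first lies at chr2:155622893-155622913 on the + strand, within Myh7b. The second lies at chr14:54975710-54975731 on the - strand, within Myh7.
mmu-miR-499-5p: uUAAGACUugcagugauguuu
mmu-miR-208b-3p: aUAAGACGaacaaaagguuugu
The 2 seeds share 6 of their bases and differ at the last. In GENCODE M21 the 3′ UTR of the longest coding Sox6 transcript (6046 bases) held 8 matches to the shared bases, of which 3 extended to the whole miR-499-5p seed and 1 to the whole miR-208b-3p seed. Among 665 genes with a 3′ UTR of 4838 to 7554 bases, 76.2% held the shared match, 40.5% the miR-499-5p match and 5.86% the miR-208b-3p match. The 4 longer matches in Sox6 are printed with the matched bases in capitals, on the - strand of mm10 chromosome 7. They lie at chr7:115476634-115476657, chr7:115476625-115476648, chr7:115476312-115476335 and chr7:115476290-115476313.
Sox6 site for miR-208b-3p: atctctgcccatcgcCGTCTTAtg
Sox6 site A for miR-499-5p: catcgccgtcttatgAGTCTTAca
Sox6 site B for miR-499-5p: cttaactattttaaaAGTCTTAca
Sox6 site C for miR-499-5p: caggagacactgcaaAGTCTTAga
Of the other 8 regulators, Esrrg held 2 miR-499-5p matches in its 3′ UTR of 3745 bases. Nfatc1 and Tead1 held 1 match each to the shared bases only. Over 3′ UTRs of all lengths (20954), 9.32% held the miR-499-5p match and 24.7% the shared match. The share at the lengths of these UTRs was not counted. A match is a description of letters. Mature microRNAs were not measured in these poly(A) libraries, where the hairpin genes had 0 counts (Mir499) or 1 count in 1 library (Mir208b).

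No regulator passed the test between the groups. By edgeR's quasi-likelihood test at an adjusted p under 0.05, 0 of the 8 tested were called in either direction. Over all 13533 tested genes 2.96% were called, 1.17% higher and 1.78% lower with diosmin. At an unadjusted p under 0.05 the count was 2 of 8, Vgll2 and Esrrg, against 16.8% of all tested genes, and DESeq2 also called 0 of the 7 to which it gave an adjusted p. The median log2 fold change of the 8 was 0.40, with 6 above 0. That of all tested genes was 0.01, with 50.5% above 0. Levels below are CPM, library-scaled counts after TMM normalisation. Esrra, Esrrg and Vgll2, 3 of 8, had both diosmin libraries above both IVS libraries, as did 23.4% of all tested genes, and 1 of 8 (Nfatc1) had both below, as did 24.1%.

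The call depended on the filter and on 1 library. With no filter on low counts, edgeR called 3 of the 9 regulators higher, where 4.09% of 22446 genes were called and 1.76% higher. They were Vgll2 (log2 fold change 1.02 in this fit, adjusted p = 0.00413), Esrrg (1.77, adjusted p = 0.0251) and Prox1 (adjusted p = 0.00231). In this fit p was that of a normal curve at fold change over SE, so the spread between libraries was taken as known. The unadjusted edgeR p of Vgll2 fell from 0.00339 to 8.45e-05, at SEs of 0.29 and 0.26. Every call of this fit, here and below, carries that limit with 2 libraries a group. Without IVS_diosmin replicate 2, Vgll2 (1.39, adjusted p = 0.0181) and Prox1 (adjusted p = 0.0436) passed in edgeR, where 1.87% of 14231 genes did, with 0.984% of the genes higher. Prox1 entered that test only because its counts were high in the lone diosmin library left, so its call there is no support. Prox1 was also tested without IVS replicate 1 (log2 fold change 7.64) and without IVS replicate 2 (3.94), and was called in neither fit. It entered both tests only through its diosmin counts. Without IVS replicate 1 the IVS library left had 0 counts, so the size of 7.64 does not rest on a measured IVS level. With a lone library in a group, that library was assumed to vary like the other group.

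Gene counts were 13056650 to 15324354 per library. In the diosmin libraries the share of counts on CT010467.1, a gene of ribosomal RNA sequence, was 0.936% and 1.16%, against 3.80% and 4.14% in IVS. Rn7sk, a nuclear noncoding RNA, was 5.97 and 11.9 CPM with diosmin against 33.5 and 34.6 CPM in IVS. Their part in the values below was not tested. Markers of blood endothelium summed to 303 and 315 CPM in IVS and to 154 and 164 CPM with diosmin, and 3 of the 6 fell (Pecam1, Cdh5 and Kdr). Tek and Emcn had both diosmin libraries lower but were not called. Vwf overlapped, at 21.2 and 27.5 CPM in IVS and at 18.4 and 34.0 CPM with diosmin. In bulk tissue, fewer cells of a type and less RNA per cell cannot be told apart.

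Per length of exons, the regulators spanned a wide range. Esrra was the highest at 12.2 CPM per kb of merged exons over the 4 libraries, followed by Vgll2 at 10.2 and Tead1 at 8.21 CPM per kb. The ranges of these 3 over libraries overlapped. They were 9.93 to 13.4 for Esrra, 6.45 to 17.7 for Vgll2 and 6.17 to 10.3 CPM per kb for Tead1. Within each library Esrra stood above Tead1, while Vgll2 changed its place between libraries. The place of Vgll2 is therefore not beyond the spread, and Tead1 stood above Vgll2 when the longest transcript gave the length. Nfatc1 (2.66), Sox6 (2.30) and Ppargc1a (1.52 CPM per kb) formed a middle group, where the ranges of neighbours overlapped too. Sox6 still stood above Ppargc1a within each library. Esrrg was at 0.453, Esrrb at 0.206 and Prox1 at 0.116 CPM per kb, and all 4 Esrrg values lay below every Ppargc1a value. Of the receptor genes, Esrra was therefore the main one in this muscle at the RNA level, above Esrrg in each library.

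**Figure D1:**
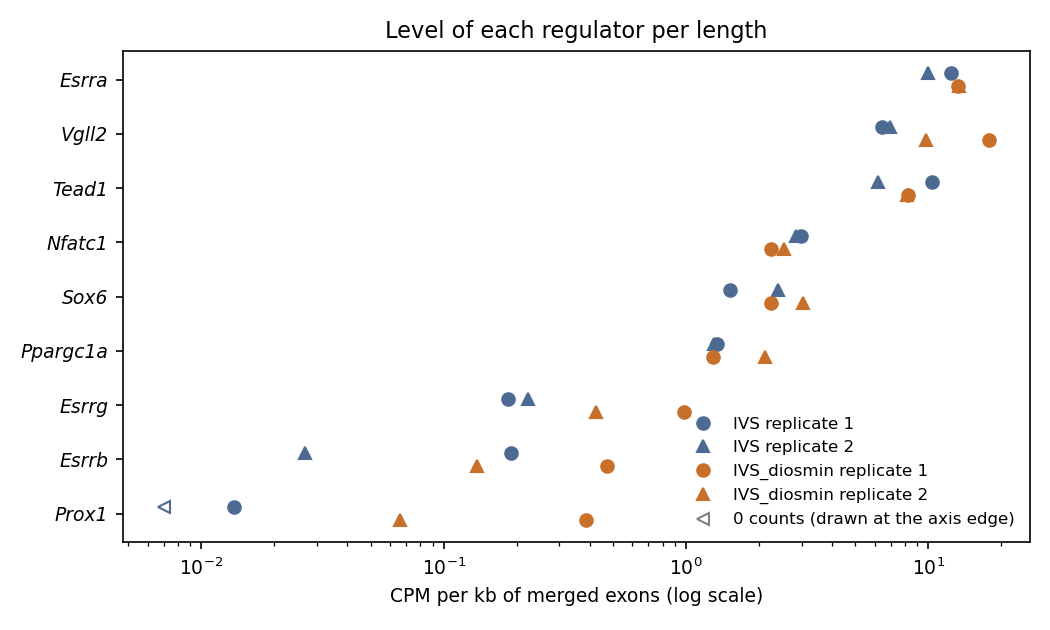
Level of each regulator in CPM per kb of merged exons (log axis), with 1 point per library, an open triangle at the axis edge for 0 counts, and the genes ordered by their mean. Esrra, Vgll2 and Tead1 lie near 10 CPM per kb, and Esrrg, Esrrb and Prox1 lie below 1 in every library.

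Ppargc1a, the coactivator (mm10 chromosome 5, 51454250 to 51567726, - strand, 14 merged exons), had levels of 8.86 and 8.61 CPM in IVS against 8.56 and 14.0 CPM with diosmin, replicate 1 first here and below. Diosmin replicate 1 lay just below both IVS libraries and replicate 2 above them, so the groups overlapped. The log2 fold change was 0.37 ± 0.30 (SE, edgeR adjusted p = 0.608), and without IVS_diosmin replicate 2 its direction turned (-0.05).

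Esrra, which encodes ERRα (chromosome 19, 6910977 to 6921813, - strand), was at 54.2 and 43.6 CPM in IVS and at 57.9 and 58.7 CPM with diosmin. The diosmin libraries were alike and lay just above the higher IVS library, a log2 fold change of 0.25 ± 0.20 (edgeR adjusted p = 0.595). Its exons share 73 of 4387 bases with Trmt112 on the opposite strand, whose own level was 17.0 to 26.7 CPM, so a small part of either count cannot be assigned without strand.

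Esrrg, which encodes ERRγ, a receptor of oxidative muscle and heart (chromosome 1, 187608791 to 188214885, + strand), had 20 and 17 counts in IVS and 79 and 38 counts with diosmin. As levels these were 1.14 and 1.38 CPM against 6.09 and 2.64 CPM. Both diosmin libraries lay above both IVS libraries, and replicate 1 was 2.31 times replicate 2. The log2 fold change of 1.79 ± 0.53 missed the threshold (edgeR adjusted p = 0.0991) and was 1.07 without IVS_diosmin replicate 1 (adjusted p = 0.547).

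Esrrb, which encodes ERRβ (chromosome 12, 86361117 to 86521628, + strand), had too few counts for a firm comparison. It had 20 and 2 counts in IVS and 37 and 12 with diosmin, or 1.14, 0.163, 2.85 and 0.833 CPM. Diosmin replicate 2 lay below IVS replicate 1, so the groups overlapped. Its log2 fold change was 1.41 ± 0.89 (edgeR adjusted p = 0.474) and ran from 0.30 without IVS_diosmin replicate 1 to 3.42 without IVS replicate 1.

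Vgll2, a TEAD cofactor made in skeletal muscle (chromosome 10, 52022502 to 52028471, + strand, 3 merged exons), had the smallest p of the regulators. It was at 10.6 and 11.5 CPM in IVS and at 29.2 and 16.1 CPM with diosmin. The IVS libraries were close together, and both diosmin libraries lay above them. The log2 fold change of 1.04 ± 0.29 missed the threshold (edgeR adjusted p = 0.0765), and it was 0.55 without IVS_diosmin replicate 1 (adjusted p = 0.481).

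Tead1, the most counted of the regulators (chromosome 7, 112679318 to 112906807, + strand), had 1030 to 2449 counts per library. It was at 140 and 83.7 CPM in IVS and at 111.3 and 110.5 CPM with diosmin. The IVS libraries enclosed the diosmin libraries, and the log2 fold change was -0.01 ± 0.24 (edgeR adjusted p = 0.985). The direction of so small a value turned without IVS replicate 1, where it was 0.40.

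Sox6, the repressor of slow genes (chromosome 7, 115470872 to 116038796, - strand, 25 merged exons), was at 22.5 and 35.6 CPM in IVS and at 33.4 and 45.1 CPM with diosmin. The groups overlapped, with diosmin replicate 1 below IVS replicate 2. The log2 fold change was 0.44 ± 0.26 (edgeR adjusted p = 0.431), with values between 0.14 and 0.80 when 1 library was left out. In the same libraries the hosts of the microRNAs printed above, named here after their values were seen, were higher. Myh7b, a sarcomeric myosin heavy chain, was at 5.60 and 7.39 CPM in IVS and at 90.6 and 78.7 CPM with diosmin. Myh7, the slow type I myosin, was at 1.72 and 2.19 against 1259 and 457 CPM.

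Prox1, a homeobox factor of slow muscle and of lymphatic endothelium (chromosome 1, 190118035 to 190170714, - strand), had 2 and 0 counts in IVS and 42 and 8 counts with diosmin. As levels these were 0.114 and 0 CPM against 3.24 and 0.555 CPM. A count of 0 in IVS replicate 2 allows up to 0.244 CPM (3 counts). Over the groups, 2 counts against 50 gave a ratio of 27.2 (95% exact binomial interval 7.15 to 231, counting error only). With diosmin replicate 1 alone the ratio was 48.2 (interval 12.5 to 411), and with replicate 2 alone it was 8.27 (interval 1.65 to 80.0). Prox1 also marks lymphatic endothelium, and the 6 markers of that cell type summed to 10.2 and 16.4 CPM in IVS and to 8.56 and 8.33 CPM with diosmin. Of these 6 markers 4 were tested and 0 passed, with none of the 6 at 0 in all libraries. Mmrn1 and Ccl21a, too low to be tested, had both diosmin libraries higher, with Mmrn1 at 0 and 0.406 CPM in IVS and at 1.39 and 0.555 CPM with diosmin. Flt4 had both lower, at 7.26 and 8.61 against 4.93 and 3.05 CPM (log2 -0.99, edgeR adjusted p = 0.175), and for Lyve1, Reln and Pdpn the groups overlapped. Their part in the Prox1 counts was not tested. The antisense partner Prox1os had 0 counts in every library.

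Nfatc1, the calcineurin-responsive factor (chromosome 18, 80606205 to 80713071, - strand), was at 22.3 and 21.3 CPM in IVS and at 16.7 and 19.0 CPM with diosmin. Both diosmin libraries lay below both IVS libraries, yet the log2 fold change of -0.29 ± 0.22 did not pass (edgeR adjusted p = 0.569). Nfatc1 is also expressed in endothelial cells, whose marker sum was lower with diosmin, and the part of those cells in its level was not tested.

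**Figure D2:**
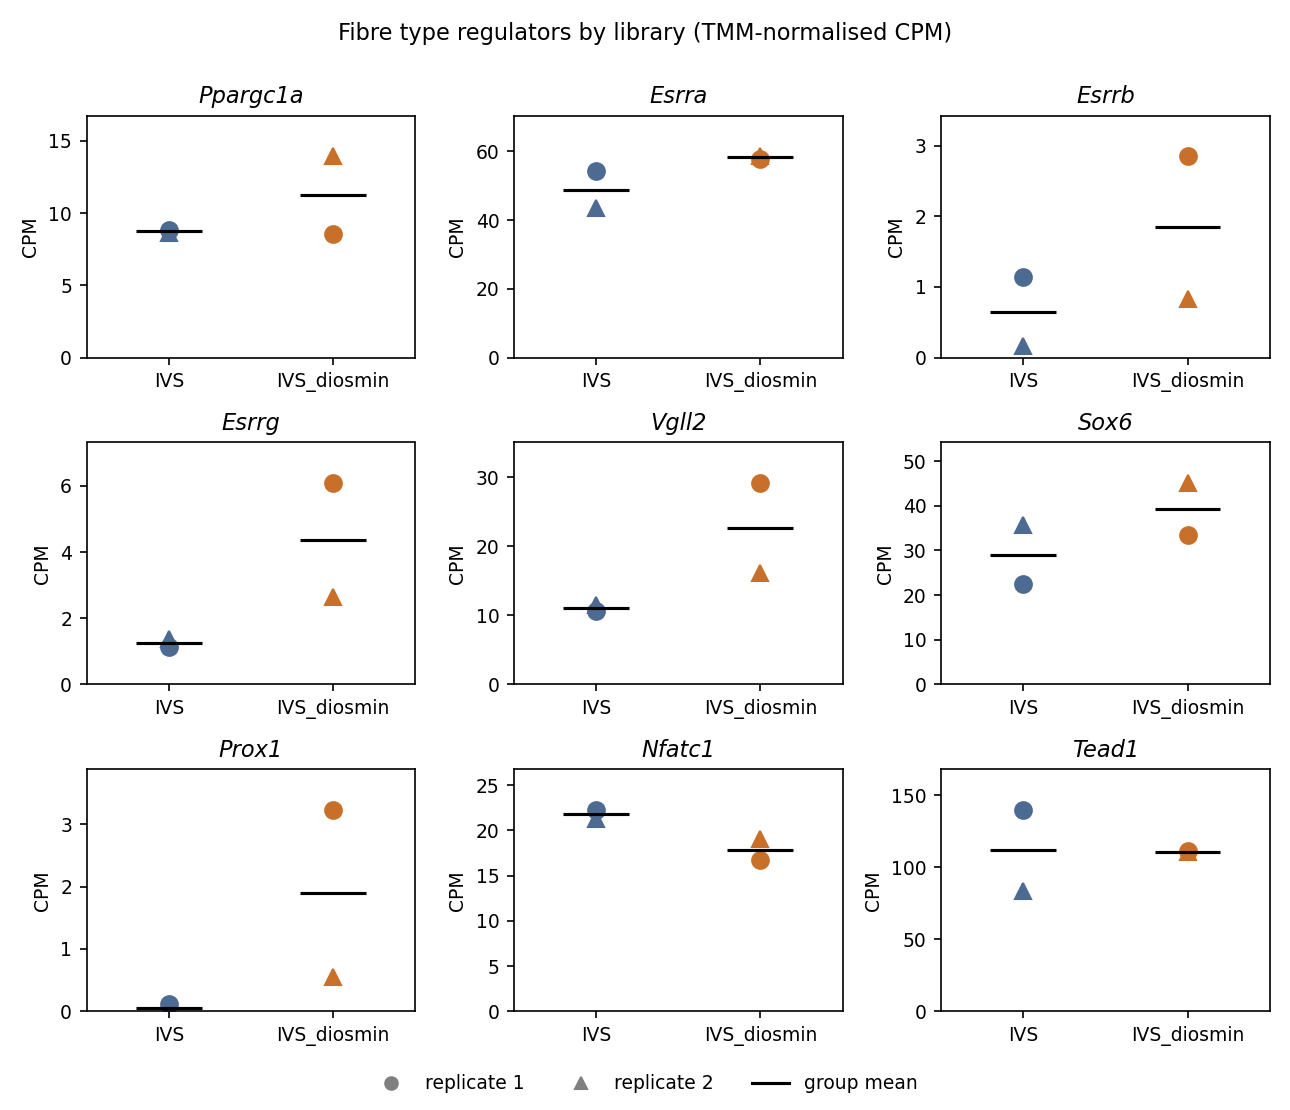
TMM-normalised CPM of each regulator in the 4 libraries (each axis starts at 0; circles are replicate 1, triangles replicate 2, lines the group means). Vgll2, Esrrg and Prox1 have both diosmin points above both IVS points, as does Esrra by a small margin, and Nfatc1 has both below.

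**Figure D3:**
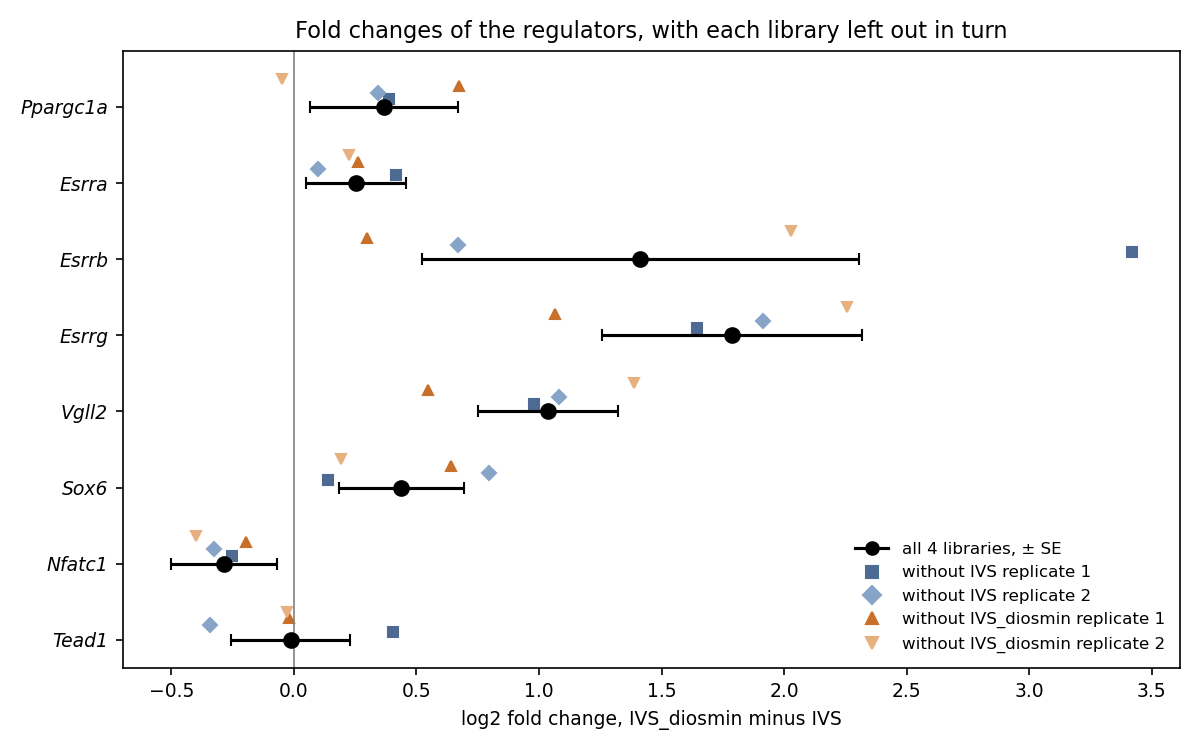
Log2 fold change of each tested regulator, IVS_diosmin minus IVS, with its SE over all 4 libraries (black) and the value with each library left out in turn. Vgll2 and Esrrg fall toward 0 without IVS_diosmin replicate 1 and stay above 0 in all 4 cases, and Ppargc1a and Tead1 cross 0.

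Within the diosmin group the regulators differed in which library was higher. Prox1, Esrrb, Esrrg and Vgll2, 4 of the 9, were more than 1.5 times higher in diosmin replicate 1 than in replicate 2, a limit chosen after the values were seen, where 15.5% of all tested genes were. Of the 8 tested regulators the count was 3, since Prox1 was not tested. Their ratios were 5.83, 3.42, 2.31 and 1.81. Slow fibre genes had the same library highest, with ratios of 2.76 for Myh7, 2.67 for Tnni1, 2.01 for Tnnt1 and 1.15 for Myh7b. Of the 12 slow contractile genes, 11 were higher there than in replicate 2 by any amount. The share of all tested genes at that looser limit was not counted. Ppargc1a and Sox6 were instead highest in diosmin replicate 2, with ratios of 0.613 and 0.740. The ratios of Esrra, Tead1 and Nfatc1 were nearer to 1 (0.987, 1.01 and 0.880). With 2 diosmin libraries these are descriptions of those libraries.

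**Figure D4:**
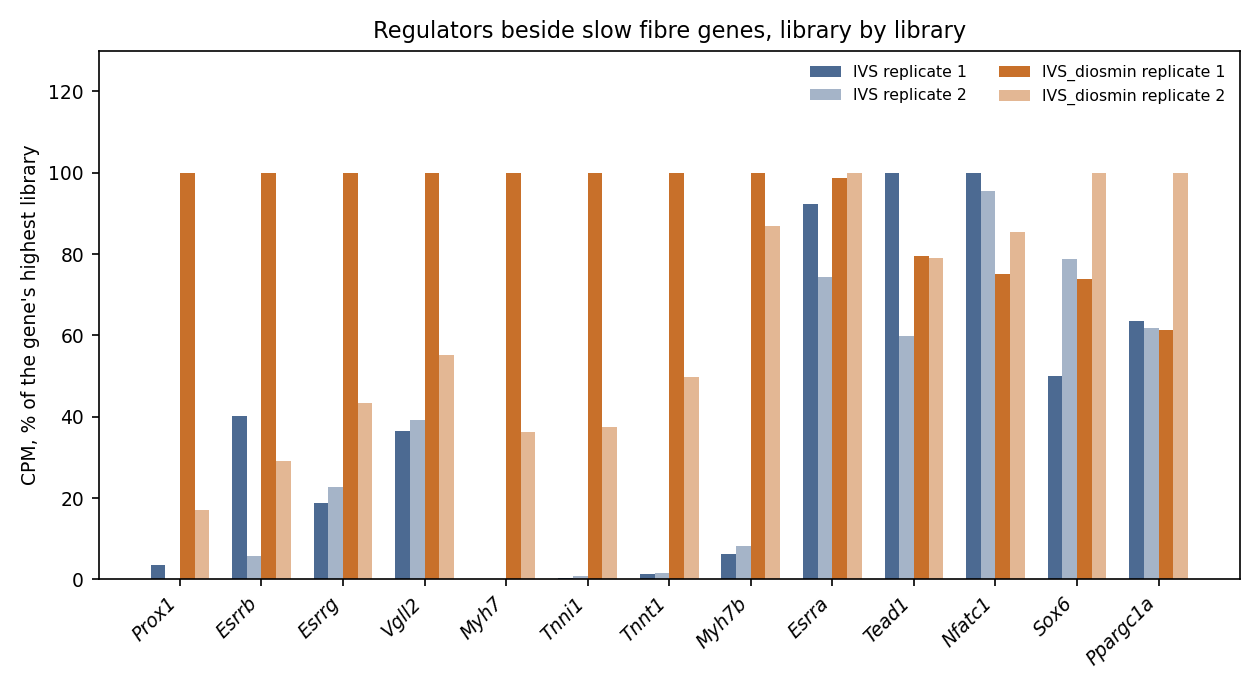
CPM of each regulator and of 4 slow fibre genes in each library, as a percent of the gene's highest library (bars start at 0). Prox1, Esrrb, Esrrg and Vgll2 peak in IVS_diosmin replicate 1, as do Myh7, Tnni1, Tnnt1 and Myh7b. In the IVS libraries Prox1 keeps 3.53% and 0% of that peak, and Esrrb, Esrrg and Vgll2 keep 5.70% to 40.1%. Myh7, Tnni1 and Tnnt1 keep at most 1.58% there, and Myh7b keeps 6.19% and 8.16%.

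The genes with the 4-library profile nearest to a regulator were sought for Vgll2 and Esrrg, the regulators of smallest p, by Euclidean distance of centred log2 CPM. For Vgll2 they were Gm47898, Slc27a1 and Gm2862 at distances of 0.04, 0.13 and 0.15, of which Slc27a1, a fatty acid transport protein, had levels of 65.0 to 172 CPM and the other 2 stayed below 3 CPM. For Esrrg they were 9530020I12Rik, Gbp4 and Actn2 at 0.07, 0.19 and 0.19. Actn2, the α-actinin of all fibre types, was at 139 and 166 CPM in IVS and at 502 and 237 CPM with diosmin. With 4 libraries, nothing about shared control follows from these distances.

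For Vgll2 and Ppargc1a the 250 bases before the only start that the RefSeq table lists are shown (GRCm38.p6), as the cofactor of smallest p and the coactivator. The capitals mark TGACG, the core of the cyclic AMP response element, which lies on the opposite strand in both. The Vgll2 window is chr10:52022252-52022501 (+ strand) and the Ppargc1a window is chr5:51567726-51567975 (- strand).
Vgll2: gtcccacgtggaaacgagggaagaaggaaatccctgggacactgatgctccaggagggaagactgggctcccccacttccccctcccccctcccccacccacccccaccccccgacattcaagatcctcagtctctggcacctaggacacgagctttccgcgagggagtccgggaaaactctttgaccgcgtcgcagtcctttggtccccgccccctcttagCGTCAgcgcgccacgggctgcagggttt
Ppargc1a: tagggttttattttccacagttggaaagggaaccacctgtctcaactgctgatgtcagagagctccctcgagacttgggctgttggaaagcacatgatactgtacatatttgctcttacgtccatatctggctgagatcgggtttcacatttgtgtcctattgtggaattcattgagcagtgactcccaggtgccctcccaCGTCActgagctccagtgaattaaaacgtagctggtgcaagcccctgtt
The core began at position -28 in Vgll2 and at -49 in Ppargc1a, counted from the start, and 17.8% of 32851 windows of this length held it on either strand. The NFAT core GGAAA occurred 4 times in the Vgll2 window and 3 times in that of Ppargc1a (55.6% of windows hold it), and the E-box CANNTG occurred 1 and 6 times (66.2% of windows). Neither window held the ERR motif AAGGTCA (4.08% of windows), the TEAD motif CATTCC (12.6%), the SOX motif AACAAT (9.42%) or the MEF2 motif (2.92%). In each window 1 E-box shares its last base with a GGAAA, that at -246 in Vgll2 and that at -233 in Ppargc1a. Esrra, the other regulator with a single listed start, held 1 E-box and none of the other motifs. No binding was measured in this series.

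Around these regulators, 9 lists of pathway genes were counted in the same edgeR fit. Of 12 partners of PGC-1α and the ERRs, 0 passed and 8 had higher values, where 50.5% of all tested genes had higher values. The median log2 fold change of these partners was 0.13. Those of smallest p were Perm1, a muscle regulator induced by PGC-1α and ERRs, at 33.6 and 33.3 CPM in IVS and 57.2 and 53.8 CPM with diosmin (log2 0.73, adjusted p = 0.0726), and Prkaa2, a catalytic subunit of AMP-activated kinase (log2 0.80, adjusted p = 0.0978, or 0.0178 with no low-count filter). DESeq2 (adjusted p = 0.0397) and the edgeR fit with no low-count filter (adjusted p = 0.0402) called Perm1.

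Of 14 genes that PGC-1α and the ERRs are known to induce, 3 were called higher and 0 lower, with a median of 0.53. Over all tested genes 1.17% were called higher and 1.78% lower. Acadm, an enzyme of fat oxidation, went from 54.6 and 42.1 to 95.5 and 95.0 CPM (log2 0.98 ± 0.21, edgeR adjusted p = 0.0282). Mb, myoglobin, went from 382 and 277 to 930 and 547 CPM (log2 1.16 ± 0.27, adjusted p = 0.0460), with 27.6% of its exon bases opposite the antisense gene Gm49540, so its count is uncertain. Mfn2, which fuses mitochondria, rose by 0.82 on the log2 scale (edgeR adjusted p = 0.0477). The list also held 6 genes with lower values, among them Ckmt2, the mitochondrial creatine kinase, named after its values were seen (log2 -0.62, adjusted p = 0.164). None of the 3 passed without IVS replicate 2, without IVS_diosmin replicate 1 or with the replicate number as a block. Acadm also missed without IVS_diosmin replicate 2 (adjusted p = 0.0745), and Mfn2 in all 4 fits with a library left out and under DESeq2-type scaling (adjusted p = 0.0510).

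In the TEAD, VGLL and Hippo list 9 of 10 genes were tested and 0 passed, with a median of -0.30. Wwtr1, the TEAD coactivator TAZ, was at 31.1 and 36.3 CPM in IVS and at 16.2 and 20.2 CPM with diosmin (log2 -0.89 ± 0.22, edgeR adjusted p = 0.0515). DESeq2 (adjusted p = 0.0340), upper-quartile scaling (adjusted p = 0.0479) and the fit with no filter (adjusted p = 0.00738) called it. Wwtr1 is made in many non-muscle cells, and the endothelial marker sum given above was lower in the same libraries, a part that was not tested. Tead4, another TEAD factor, was at 3.72 and 3.49 against 1.93 and 2.22 CPM (adjusted p = 0.404).

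The calcineurin and NFAT list had 0 of 14 past the threshold, with a median of 0.28. Higher values were held by 12 of 14, against 50.5% of all tested genes. Both diosmin libraries were higher for 4 of the 14 (23.4% of all tested genes) and lower for 1 (24.1%). Nfatc2, an NFAT factor, was at 20.01 and 15.03 CPM in IVS and at 33.8 and 27.5 CPM with diosmin (log2 0.80, edgeR adjusted p = 0.0894), the other direction to Nfatc1. It passed in the fit with no low-count filter (adjusted p = 0.0285). For Rcan2, a calcineurin regulator, the log2 fold change was 0.56 (adjusted p = 0.241). In the MEF2 and class II histone deacetylase list 0 of 13 passed, with a median of 0.20. Those of smallest p were Hdac5, a deacetylase that holds MEF2 factors inactive, and Mef2c. Their log2 fold changes were 0.53 (edgeR adjusted p = 0.180) and 0.47 (adjusted p = 0.260). Both diosmin libraries were higher for each of them, and for 6 of the 13 in all, and lower for 2. Over all tested genes these shares were 23.4% and 24.1%.

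Regulators of the fast programme showed no call, with 0 of 10 past the threshold and a median of 0.02. Eya3, a transcriptional cofactor of fast fibre genes, had the smallest p, with a log2 fold change of 0.66 that did not pass (edgeR adjusted p = 0.297). Of the 3 SOX and PROX relatives 2 were tested and 0 passed, Prox2 at 0.975 to 1.74 CPM (log2 0.74, adjusted p = 0.638) and Sox13 at 6.80 to 17.6 CPM (log2 -0.58, adjusted p = 0.474). Without IVS replicate 2 the direction of Sox13 turned (0.022).

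Of 12 slow contractile genes 10 were called higher and 0 lower, against 1.17% and 1.78% of all tested genes. In bulk tissue, more slow fibres and more RNA per slow fibre cannot be told apart. The median log2 fold change of the list was 4.62. The largest values were those of Myh7 (log2 8.79, edgeR adjusted p = 0.00427), Tnni1 and Tnnc1, slow troponins (7.23 and 6.62), and Tnnt1, slow troponin T (5.74). Without IVS_diosmin replicate 1 these 4 were at 7.88, 6.35, 5.66 and 5.15, and without IVS replicate 2 Tnni1 was at 8.05. Without IVS replicate 1 Tnnc1 missed the threshold (edgeR adjusted p = 0.0508). Of 12 fast contractile genes 1 was called higher and 2 lower, with a median of -0.17. Myh1, the IIx myosin, rose by 1.17 on the log2 scale (adjusted p = 0.0261), while the calsequestrin of fast fibres, Casq1, had a log2 change of -0.92 (adjusted p = 0.0353) and the fast troponin C gene Tnnc2 of -0.93 (adjusted p = 0.0396). Leaving out IVS replicate 2 or IVS_diosmin replicate 1 ended all 3 fast calls, and leaving out IVS_diosmin replicate 2 ended those of Casq1 and Tnnc2, as did the replicate block (adjusted p = 0.103 and 0.111). Tnnc2 shares 74.0% of its exon bases with Ube2c on the opposite strand, so its count is uncertain. Smaller shares lie opposite other genes for Myh7 (5.62% Mhrt, 6.07% Gm31251, 1.65% Gm29015), Myh1 (8.11% Myhas) and Casq1 (8% Gm17224). Mhrt was at 0.400 and 2.28 CPM in IVS and at 553 and 172 CPM with diosmin.

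**Figure D5:**
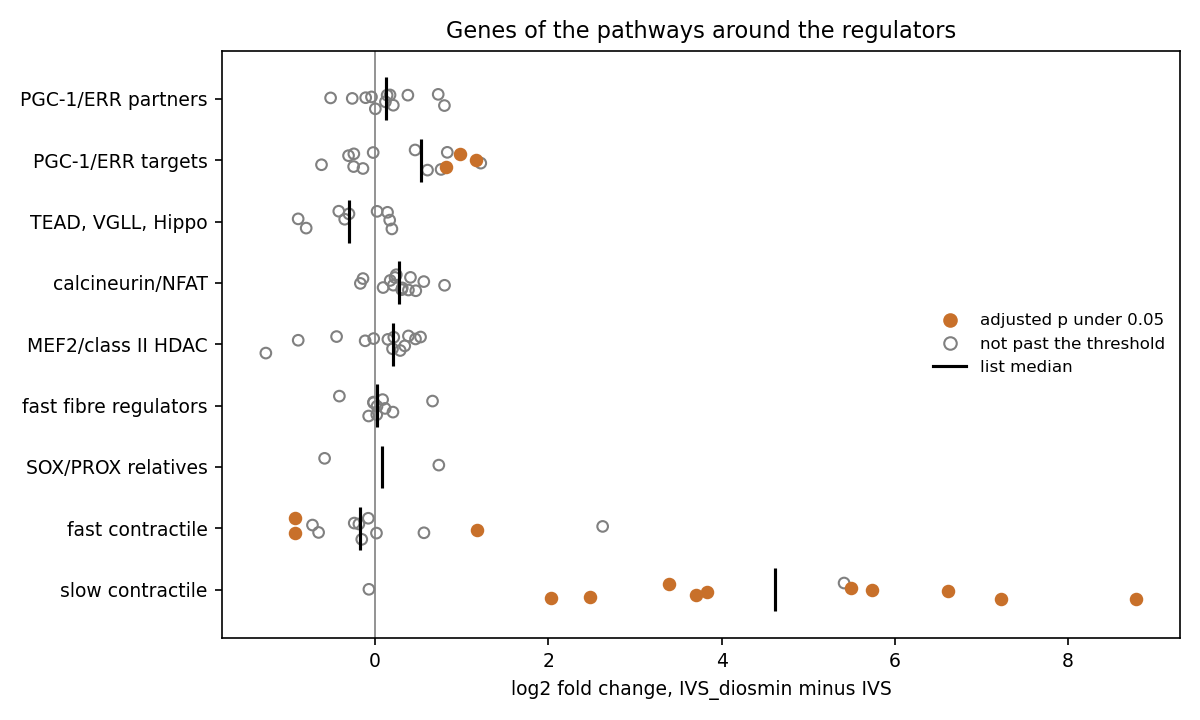
Log2 fold change of every tested gene in the 9 pathway lists, IVS_diosmin minus IVS (filled points passed an adjusted p of 0.05, bars are list medians). The slow contractile genes spread from near 0 to 8.79, while the 6 lists of regulators and signalling genes stay between -1.26 and 0.80.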

How the data were processed

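For each library the authors deposited a table of whole-number read counts by gene, not normalised. HISAT2 2.1.0, HTSeq and the mm10 build are named in the submitters' processing notes, while annotation release and strand setting are not given in the sources used here. Symbols, positions and exon lengths came from GENCODE M21 (55141 of 55401 identifiers matched). The 5 HTSeq summary lines stayed out of all fits. Genes held 27.5% and 27.7% of each file's reads in IVS and 24.9% and 26.3% with diosmin. Reads without a unique alignment were 37.7% and 38.8% in IVS and 45.6% and 43.6% with diosmin. The part of this difference in the values was not tested.

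Counts were fitted in edgeR 4.0.16 (R 4.3.3; limma 3.58.1) with filterByExpr, TMM scaling and a robust quasi-likelihood test (2-sided) for the diosmin effect, adjusted by Benjamini-Hochberg over 13533 genes and a threshold of 0.05. An SE is the log2 fold change over the root of F. The fit was tested on simulated data. The biological coefficient of variation was 0.235, and 1 count was worth 0.0572 to 0.0813 CPM. Chi-square over degrees of freedom was 28.6 between the IVS and 19.7 between the diosmin replicates, so no library repeated another. With 2 against 2, an exact permutation test cannot go below p = 0.333. Alternatives were DESeq2 1.42.0, other scalings, no filter, a replicate block and leaving out each library. The members and lists were chosen with earlier results of these data known. Genes named from a list were those past the threshold (up to 4 by fold) or, failing 2 of these, those of smallest p; a gene that this rule named among the fast fibre regulators is not reported here. Likeness used log2(CPM + 0.5). Of the 9 regulators, 7 had a promoter window in the RefSeq table.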

Additional observations from a re-analysis of the deposited data

How the results depend on the processing

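With 2 libraries a group, leaving 1 out moved many counts. The number of regulators called higher was 0 to 2 when a library was left out and 3 with no low-count filter. Of the 2, Prox1 became testable only through its counts in the remaining diosmin library, which leaves Vgll2. It was 0 with DESeq2, the other scalings and the replicate block, and 0 regulators were called lower under every alternative run. Of 80 values for the 8 tested regulators under 10 alternatives, 74 kept their direction and side of the threshold (a value with no adjusted p was read on its direction). Another 3 passed it (Vgll2 and Esrrg with no filter, and Vgll2 without IVS_diosmin replicate 2), and 3 turned. With a library left out, Ppargc1a ranged from -0.047 to 0.67, Tead1 from -0.34 to 0.40 and Sox13 from -1.03 to 0.022, and Tead1 was at 0.034 with the replicate block.

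DESeq2 called 1 partner of PGC-1α higher, 1 TEAD gene lower and 4 fast contractile genes lower, and upper-quartile scaling called 1 TEAD gene lower. With no low-count filter, 2 partners, 5 PGC-1α and ERR targets and 1 calcineurin gene were higher and 1 TEAD gene was lower. With a library left out, 0 to 2 targets and 0 to 2 fast genes were higher, and 0 to 1 MEF2 or deacetylase gene and 0 to 2 fast genes were lower. Slow contractile genes called higher numbered 9 to 11 under all alternatives. By the longest transcript, Tead1 ranked 2 and Vgll2 ranked 3 in level.

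Over all genes, 919 were called with no filter (394 higher, 525 lower), and DESeq2 called 260 higher. With a library left out, 38 to 366 were called, 27 to 140 higher and 11 to 257 lower. The replicate block called 93 genes (44 higher, 49 lower), 0 targets, 2 fast genes higher and 0 lower. The libraries share only a replicate number, with a correlation of -0.00137 over genes between the replicate differences of the 2 groups, and no label ties a number to a pairing. The filter changes the genes tested, but with no filter edgeR's unadjusted p fell as well, from 0.00534 to 0.000828 for Esrrg. Except for the libraries left out, the cause of these moves was not tested.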
